A study of Homo sapiens with 61 samples.

Results

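Untreated neurons that lack both DLK and LZK were compared with untreated wild-type neurons over all expressed genes. The comparison took 8 of the 61 libraries of the study, 4 labelled DLK LZK double KO (knockout) and 4 labelled wild type (WT), and 18235 of the 58440 genes in the count table had enough reads to be tested. Genes whose start lies on chromosome 11 from 100 to 140 Mb, chromosome 16 from 0 to 40 Mb, chromosome 18 from 20 to 80 Mb, chromosome 20 from 20 to 80 Mb or chromosome 9 from 20 to 40 Mb were kept apart, because these 5 stretches had been chosen as shifting together in this same comparison. They hold 4359 genes of the table, of which 1347 were tested, and 16888 tested genes lie elsewhere.

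WTC11, a widely used line of human induced pluripotent stem cells, was the source of all neurons. All lines, WT included, carry a cassette that drives the neuronal transcription factor NGN2 when doxycycline is given, and were turned into what the labels call cortical neurons. The first experiment had cells without DLK (DLK KO), without LZK (LZK KO), without both (double KO) and WT cells, which from day 14 received the vehicle DMSO (untreated) or 5 nM vincristine, a drug that destabilises microtubules, for 16 hours. The second experiment silenced JUN or ATF2 by CRISPR interference with a guide RNA (gRNA), next to neurons with a Control gRNA. Each genotype of the first experiment was 1 cell line, so the effect of the knockouts cannot be told apart from any other difference between the lines. The labels do not say whether the 4 libraries of a group came from separate differentiations, so p-values measure the spread between these libraries, which may be technical.

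DLK (gene MAP3K12) and LZK (gene MAP3K13) are related kinases that sense damage to the axon and the cytoskeleton. They phosphorylate the kinases MKK4 and MKK7, which activate the JNK kinases, and JNK phosphorylates transcription factors such as JUN and ATF2. In injured neurons this pathway is known to drive both regrowth of the axon and programmed cell death, and in healthy neurons part of it is active at a low level.

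The sequences before the start of 4 genes are shown because they carry, or lack, the DNA motifs of the factors that lie downstream of JNK. JUN is the classical target of the pathway, and TCEAL5, TFCP2 and CCDC152 had the lowest fold changes among called coding genes outside the stretches with a mean log2 CPM of at least 1 over the 8 libraries. Each sequence is the 250 bases upstream of the gene's start in RefSeq on GRCh38.p14, read 5′ to 3′ on the gene's strand. Capitals mark a match to one of 3 motifs, searched on both strands, which were TGACGTCA (bound by CREB and ATF factors), TGACATCA (the variant in the JUN promoter) and TGAGTCA (bound by AP-1). The JUN window is chr1:58784048-58784297 on the minus strand, with TGACATCA 67 bases before the start. The TCEAL5 window is chrX:103276751-103277000 on the minus strand and holds none of the 3. The TFCP2 window is chr12:51173136-51173385 on the minus strand, with TGACGTCA 9 bases before it. The CCDC152 window is chr5:42756568-42756817 on the plus strand, where the match 243 bases before the start is TGAGTCA read on the other strand.
JUN: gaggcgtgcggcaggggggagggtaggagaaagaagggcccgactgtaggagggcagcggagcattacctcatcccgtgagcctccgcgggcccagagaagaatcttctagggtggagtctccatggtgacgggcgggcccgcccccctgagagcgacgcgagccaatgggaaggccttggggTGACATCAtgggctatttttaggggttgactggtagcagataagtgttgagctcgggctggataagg
TCEAL5: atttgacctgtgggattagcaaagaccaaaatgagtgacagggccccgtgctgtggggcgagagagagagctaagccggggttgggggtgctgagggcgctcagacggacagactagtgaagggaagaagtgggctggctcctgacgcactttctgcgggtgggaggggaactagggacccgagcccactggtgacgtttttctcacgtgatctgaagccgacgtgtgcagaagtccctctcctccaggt
TFCP2: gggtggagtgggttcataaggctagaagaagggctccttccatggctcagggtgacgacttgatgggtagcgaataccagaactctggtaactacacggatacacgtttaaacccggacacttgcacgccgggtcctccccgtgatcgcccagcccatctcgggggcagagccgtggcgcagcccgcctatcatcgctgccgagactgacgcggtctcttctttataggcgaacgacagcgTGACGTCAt
CCDC152: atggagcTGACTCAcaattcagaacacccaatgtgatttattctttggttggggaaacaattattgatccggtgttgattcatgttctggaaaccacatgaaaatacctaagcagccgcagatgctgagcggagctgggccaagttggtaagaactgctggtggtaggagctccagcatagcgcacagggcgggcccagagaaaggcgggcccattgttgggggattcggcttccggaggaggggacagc

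Windows of 300 bases, from 250 before to 50 after the start, were searched for the same motifs in 27305 RefSeq promoters. TGACGTCA was found in 1.98% of all of them, TGACATCA in 2.71% and TGAGTCA in 4.92%. Among the 9908 tested genes outside the stretches with such a window, the shares were 3.17%, 1.67% and 2.79%. For the 2182 of these genes that were lower in double KO they were 3.57%, 2.57% and 3.62%, and for the 2588 that were higher they were 2.55%, 1.74% and 2.24%. A match is only the presence of these letters.

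The WT libraries held 10.1 to 14.6 M counts (M, mega) and the double KO libraries 9.64 to 12.2 M. Between 28064 and 37952 genes had at least 1 count in WT, with replicate 4 highest, and between 28194 and 29483 in double KO. Mitochondrial genes took 7.19% to 8.79% of counts in WT and 6.20% to 7.28% in double KO. Levels are given as CPM (read counts scaled to the size of the library, with TMM factors) and differences as the log2 fold change of double KO over WT ± its standard error (SE). A gene is called, and said to rise or fall, when its p-value from edgeR's quasi-likelihood test is under 0.05 after Benjamini-Hochberg adjustment over all genes tested.

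Of the 18235 genes tested, 8334 were called (45.7%), with 4311 higher (23.6%) and 4023 lower (22.1%) in double KO. In 8600 genes (47.2%) the 4 libraries of a group all lay on the same side of the 4 of the other. Outside the stretches 4015 genes rose and 3278 fell, the median log2 fold change was 0.03, and 1363 rose and 892 fell by at least 2-fold. Without WT replicate 4 these counts outside the stretches were 3861 and 3053. The excess of higher genes was absent with TMM factors from genes outside the stretches (3644 higher, 3654 lower) and near absent with no filter (3904 and 3895). Protein-coding genes were called in 50.6% of 13507 cases, long intergenic RNAs in 42.3% of 1017 and antisense RNAs in 31.6% of 1051. Of the protein-coding genes 3487 were higher and 3350 lower. Reads from an antisense gene and its partner may not have been separated, since the strand setting of the counting is not stated. The median GC content of genes outside the stretches was 45.0% for those that rose, 49.6% for those that fell and 47.4% for all.

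The deleted genes were checked first. MAP3K12 (ENSG00000139625.12, chr12:53479669-53500063, minus strand), which encodes DLK, stood at 89.8, 94.3, 90.2 and 89.7 CPM in WT and at 21.8, 17.7, 17.4 and 21.7 in double KO. The double KO libraries kept 21.6% of the WT level, far below every WT library (-2.21 ± 0.11, adjusted p = 5.55e-19). MAP3K13 (ENSG00000073803.13, chr3:185282941-185489097, plus strand), which encodes LZK, stood at 98.9, 101, 99.1 and 96.8 CPM in WT and at 29.8, 31.0, 30.9 and 26.7 in double KO. Its groups were also far apart (-1.74 ± 0.06, adjusted p = 2.60e-23), and 29.9% of the level was left. Counts cover the whole gene, and the edited part is not stated in the sources used here. MAP3K12 in double KO was also lower than in DLK KO (26.3 ± 2.48, SD, n = 4), by -0.42 on the log2 scale (adjusted p = 0.00263). For MAP3K13 the difference from LZK KO (31.9 ± 1.96) was -0.11 (adjusted p = 0.198).

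Within the DLK and LZK pathway the largest change was in DUSP16, one of the phosphatases that switch JNK off. The list of 25 kinases, scaffolds and phosphatases had 5 members higher, 9 lower and 11 not called, with a median of -0.11 against 0.01 over all genes. Shares over all genes were 23.6% higher and 22.1% lower, and belong beside the counts of this and every later list. The counts of all lists include members that lie inside the stretches. DUSP16, which inactivates JNK and p38, stood at 43.4, 42.0, 38.5 and 41.4 CPM in WT and at 1.46, 1.12, 1.09 and 1.40 in double KO. It fell 32.8-fold, and no library of either group came near the other (-5.03 ± 0.15, adjusted p = 1.88e-25). DUSP10, of the same class, fell from 119 to 54.6 CPM (-1.13 ± 0.07), and DUSP8 from 85.0 to 27.7 (-1.61 ± 0.19). DUSP4, which acts mainly on ERK, rose from 146 to 193 CPM (0.40 ± 0.09), and DUSP1 was at 16.1 and 16.2.

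The kinases between DLK and JUN given here moved by less than 2-fold, in both directions. Over all genes the median absolute log2 fold change was 0.33. MAP2K4, which encodes MKK4, fell from 98.0 to 82.6 CPM (-0.25 ± 0.08), and MAP2K7, which encodes MKK7, was at 40.1 and 41.8. Of the JNK genes, MAPK8 rose from 249 to 314 CPM (0.33 ± 0.08), MAPK10, the neuronal form, rose from 252 to 355 (0.50 ± 0.07), and MAPK9 fell from 97.6 to 84.6 (-0.21 ± 0.05). The scaffold MAPK8IP1 (JIP1) fell from 190 to 98.4 CPM (-0.95 ± 0.14). MAPK8IP3 (JIP3) fell from 202 to 91.2 (-1.15 ± 0.17), but it lies in the chromosome 16 stretch. MYCBP2, the ubiquitin ligase that degrades DLK, rose from 660 to 785 (0.25 ± 0.05).

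Among the transcription factors near the end of the pathway, JUN, JUND, ATF3 and CREB5 fell in the double knockout. Of 26 AP-1, ATF and CREB factors 22 were tested, and 4 were higher, 9 lower and 9 not called (median -0.11). JUN (ENSG00000177606.6), whose promoter is printed above, stood at 140, 151, 138 and 131 CPM in WT and at 38.4, 41.9, 36.5 and 41.5 in double KO. All 4 double KO libraries lay below all WT libraries (-1.82 ± 0.14, adjusted p = 7.83e-12). JUND, its relative, stood at 199, 205, 173 and 169 CPM in WT and at 59.9, 55.7, 54.1 and 60.8 in double KO. It fell by as clear a gap (-1.70 ± 0.17, adjusted p = 2.00e-09).

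ATF3, an injury-induced repressor and activator, stood at 15.1, 14.9, 13.9 and 12.5 CPM in WT and at 1.87, 1.44, 1.26 and 1.96 in double KO. It kept little of its WT level (-3.12 ± 0.17, adjusted p = 5.65e-18). CREB5, a relative of ATF2, stood at 52.9, 45.3, 47.6 and 48.2 CPM in WT and at 8.01, 8.34, 7.80 and 8.85 in double KO (-2.55 ± 0.13, adjusted p = 1.30e-18). ATF5, JDP2, MAFF, MAFG and CREB3L2 also fell, with log2 fold changes from -0.86 to -0.41. FOSL2 rose from 1.37 to 4.32 CPM (1.64 ± 0.27), ATF7 and CREB1 rose by 0.22 or less, and CREB3, in the chromosome 9 stretch, rose by 0.58. ATF2 itself was at 141 CPM in WT and 148 in double KO (0.07 ± 0.11), and ATF4 was at 174 and 177.

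**Figure D1:**
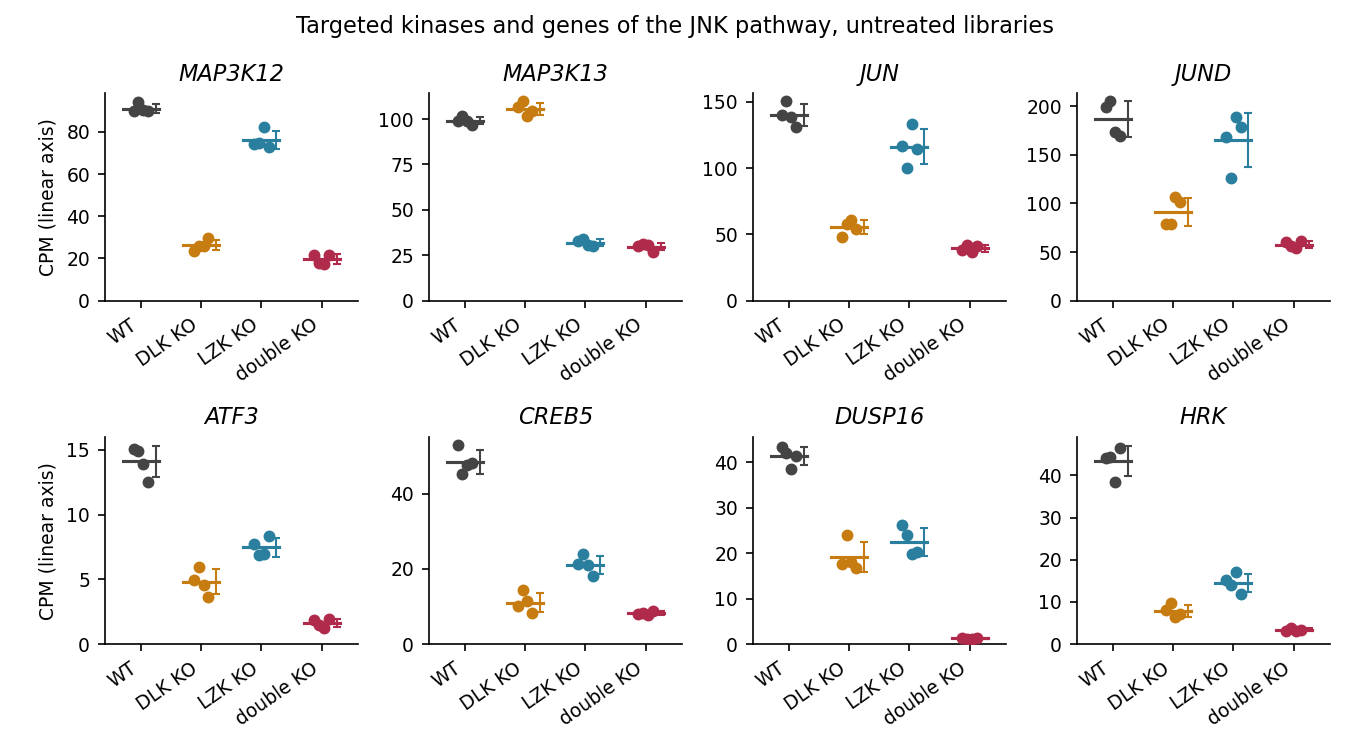
CPM of 8 genes in untreated libraries of the 4 lines, with a point for each library, a line at the mean and a bar of 1 SD (4 libraries per group, linear axes that start at 0). JUN, JUND, ATF3, CREB5, DUSP16 and HRK lie lower in all 4 double KO libraries than in any WT library, with DUSP16 between 1.09 and 1.46 CPM against 38.5 to 43.4.

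The single knockouts share the WT libraries with this comparison, so their values are only set beside it. JUN was at 55.3 ± 5.34 CPM in DLK KO and 116 ± 13.3 in LZK KO (SD, n = 4), and the double KO level lay below both, by -0.48 (adjusted p = 0.00676) and -1.55 (adjusted p = 3.41e-10). JUND was at 91.6 ± 14.4 and 165 ± 27.7 CPM, and again lower in double KO than in DLK KO (-0.67, adjusted p = 0.00169). DUSP16 was at 19.1 ± 3.33 CPM in DLK KO and 22.5 ± 3.07 in LZK KO, where double KO had 1.27.

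Over all genes, 8529 (46.8%) differed between double KO and DLK KO and 7141 (39.2%) between double KO and LZK KO. The double KO effect was tested against the sum of the log2 effects of the 2 single knockouts, and 6648 genes (36.5%) departed from it, 5764 of them outside the stretches (3190 above the sum and 2574 below). JUN did not pass this test (-0.21 ± 0.20, adjusted p = 0.43), nor did MAP3K12 (-0.16 ± 0.15, adjusted p = 0.43), HRK (0.37 ± 0.23, adjusted p = 0.21) or JUND (-0.49 ± 0.23, adjusted p = 0.099). DUSP16 did, lying -3.04 ± 0.20 below the sum (adjusted p = 5.94e-15).

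The furthest departures below the sum were TFCP2, ZNF717 and CBR1. TFCP2, a transcription factor, had 53.9 ± 3.48 CPM in DLK KO and 45.5 ± 5.09 in LZK KO, near the WT range of 50.0 to 58.2, and 3 counts in all in double KO. ZNF717, a zinc finger gene with near-identical copies that make its counts uncertain, had 19.5 to 20.9 CPM in WT and 0 in every double KO library, while DLK KO held 26.2 ± 2.14 and LZK KO 19.8 ± 1.48. CBR1, a carbonyl reductase, had 10.4 to 14.6 CPM in WT and 0 in double KO, while DLK KO held 15.1 ± 1.40 and LZK KO 7.46 ± 1.32. Against a floor of 3 counts over the group, CBR1 was at least 189-fold lower in double KO than in WT.

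The furthest departures above the sum were genes that a single knockout line lacked and the double knockout line had. ZNF300 stood at 43.9 to 49.7 CPM in WT and 49.7 to 54.0 in double KO, but at 3.39 ± 0.763 in DLK KO and 0.260 ± 0.235 in LZK KO. Its departure was 11.41 ± 0.26 (adjusted p = 3.52e-28). For this gene and the next 2, the sum adds 2 large log2 losses and falls to a level that counts could hardly show. The size of these departures therefore does not measure how strongly the knockouts act together. PCDHGA7, a clustered protocadherin, stood at 13.6 to 17.1 CPM in WT and 11.9 to 18.0 in double KO, and at 0.263 ± 0.137 and 0.463 ± 0.247 in the single knockouts. ZNF471 stood at 8.57 to 13.3 CPM in WT and 14.0 to 17.3 in double KO, but at 0.0488 ± 0.0564 in DLK KO and 2.37 ± 0.729 in LZK KO.

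The 12 lowest and 12 highest fold changes were taken among called coding genes outside the stretches with a mean log2 CPM of at least 1. A further condition was that the 4 libraries of 1 group all lay apart from the 4 of the other. The 12 with the lowest fold changes stood at 3.93 CPM or less in every double KO library. ZNF717, CBR1 and other genes under the log2 CPM limit, some with lower fold changes, are not among the 12. TCEAL5, of a family of elongation factor-like proteins, stood at 27.1, 25.9, 25.2 and 23.3 CPM in WT and at 0 in all 4 double KO libraries, 1155 counts against 0. It was at least 379-fold lower against a floor of 3 counts over the group, and it was also near 0 in DLK KO (0.0912 ± 0.125 CPM) and LZK KO (0.0231 ± 0.0463). TFCP2 stood at 58.2, 50.0, 56.0 and 52.4 CPM in WT and at 0, 0.160, 0 and 0.0931 in double KO. The ratio over the group was 809-fold, with a 95% counting interval of 277 to 3928. CCDC152 stood at 28.1, 28.1, 23.7 and 23.8 CPM in WT and had 3 counts in double KO, a ratio of 385-fold (131 to 1867). It overlaps a gene on the opposite strand, and the strand setting is not stated.

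MAGEA4, a cancer-testis antigen gene on chromosome X, stood at 107, 112, 115 and 98.3 CPM in WT and at 0.416, 0.561, 0.252 and 0.372 in double KO. That is a 270.4-fold difference (-8.03 ± 0.13, adjusted p = 2.90e-33), while DLK KO had 64.4 ± 2.92 CPM and LZK KO 49.1 ± 2.40. CRABP1, which binds retinoic acid in the cytoplasm, fell from 161, 172, 183 and 177 CPM to 3.22, 3.93, 3.52 and 3.54 (-5.60 ± 0.15, adjusted p = 1.22e-25). The other lowest genes were the zinc finger genes ZNF506 (-8.07), ZNF354C (-6.67) and ZNF585A (-5.82), the hydrolase gene IAH1 (-6.45), TCEAL7 (-5.79), DUSP16 and DUSP26 (-5.07), a further dual-specificity phosphatase. Their WT libraries ran from 7.83 to 43.4 CPM and their double KO libraries from 0 to 1.46.

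Under the same conditions, the 12 genes with the highest fold changes stood at 7.85 CPM or less in every WT library. SLITRK4, a synaptic adhesion protein, stood at 0.0956, 0, 0.211 and 0.0993 CPM in WT and at 47.9, 46.0, 48.0 and 47.3 in double KO. CHL1, a neural adhesion molecule, stood at 0.191 to 0.894 CPM in WT and 43.2 to 49.6 in double KO, and at 0.0960 ± 0.0728 and 0 in the single knockouts. BNC2, a zinc finger transcription factor, stood at 6.21, 6.24, 6.60 and 7.85 CPM in WT and at 330.0, 331, 351 and 322 in double KO. It rose 49.8-fold with little spread in either group (5.63 ± 0.10, adjusted p = 3.08e-32), with 10.1 ± 0.684 CPM in DLK KO and 7.53 ± 0.981 in LZK KO.

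Several of these highest genes are regulators or products of particular neuron types, and in bulk libraries more cells of a type and more RNA per cell cannot be told apart. ISL1, a homeobox factor of motor and sensory neurons, rose from 1.05, 1.30, 1.47 and 0.993 CPM to 67.8, 65.5, 66.3 and 65.4 (5.74 ± 0.14), with 20.5 ± 1.83 in DLK KO and 0.434 ± 0.281 in LZK KO. SST, the neuropeptide somatostatin, rose from 0.0993 to 0.466 CPM to 17.5 to 19.5 (6.18 ± 0.23), with 9.74 ± 1.22 in DLK KO and 0.509 ± 0.254 in LZK KO. MEIS2, a homeobox factor, rose from 2.10 to 2.88 CPM to 144 to 154 (5.93 ± 0.12), but LZK KO reached 675 ± 21.3 and lay above double KO (-2.19, adjusted p = 1.99e-22). LDOC1 (7.67 ± 0.30), GNAT3 (5.89 ± 0.32), AL592183.1, which lies on an unplaced contig (7.34 ± 0.28), and PCDHGA1, PCDHGA2 and PCDHGA3 (5.63 to 5.96) completed the group.

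**Figure D2:**
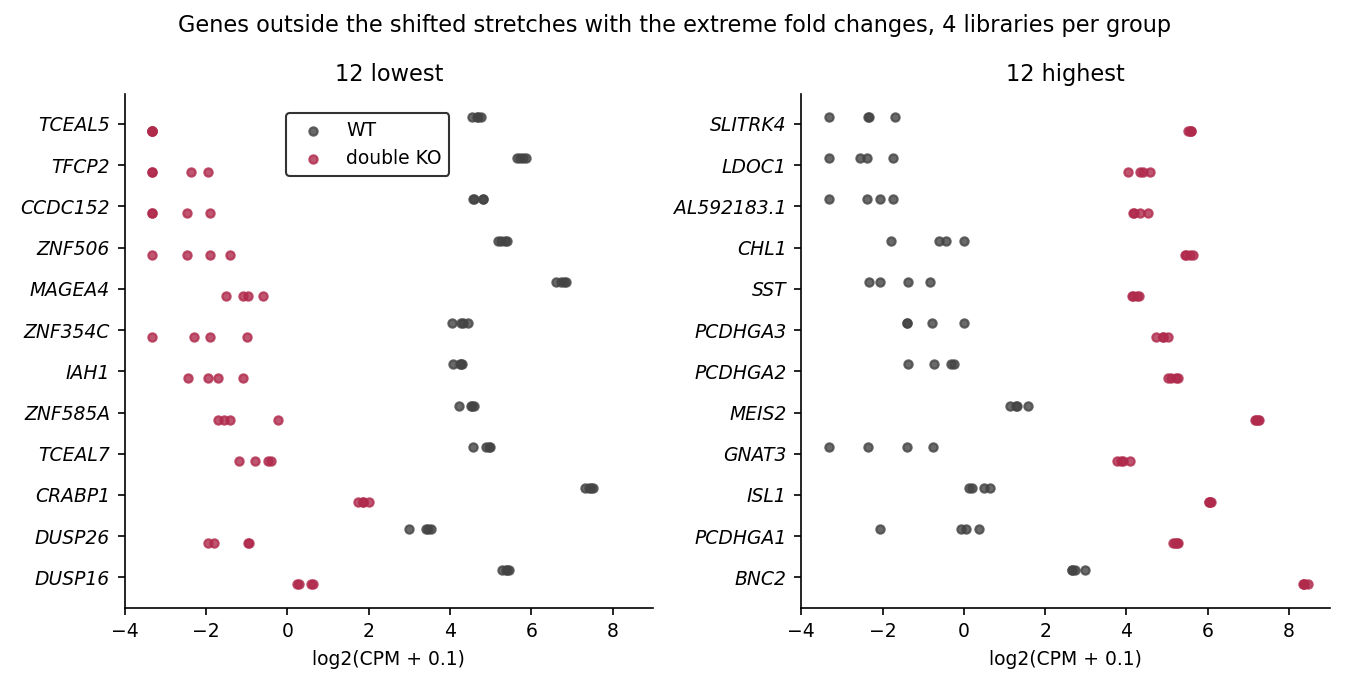
Log2(CPM + 0.1) of the 12 lowest and 12 highest coding genes outside the stretches with a mean log2 CPM of at least 1, with a point for each of 4 WT and 4 double KO libraries. The groups are apart in all 24 genes because this was a condition of the choice. Most of the lower group sit near the floor of the scale that 0 counts give.

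Genes that dropped out of detection altogether were more numerous in double KO than in WT. With near absence set at 3 counts or fewer over the 4 libraries, and at least 2 CPM in the other group, 33 genes were near absent in double KO and 10 in WT. Of the 33, 28 lie outside the stretches and 21 are protein coding, among them the antioxidant enzyme gene CAT, CBR1, CSRP1, DNAJA4, QPCT, PXMP4, TSPYL5 and 6 genes with zinc finger symbols. The same measure found 8 of the 33 near absent in DLK KO, 8 in LZK KO, 14 in the double KO vincristine libraries and 0 in the WT vincristine libraries. The 4 coding genes near absent in WT were BIK, DKK1, EVX2 and NXPH2.

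Zinc finger genes were more often higher than lower. Of 468 tested genes with a zinc finger symbol 238 rose and 66 fell, with a median of 0.26, and 12 fell by at least 16-fold, where 23.6% of all genes were higher and 22.1% lower. On chromosome 19, where many of them cluster, 140 of 228 rose and 14 fell (median 0.36).

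In each of the 5 stretches most tested genes shifted the same way, though parts of the stretches on chromosomes 20 and 9 shifted little. In the chromosome 16 stretch 378 of 440 tested genes were called lower and 5 higher, with a median log2 fold change of -1.04, or 0.485 of the WT level. In the chromosome 11 stretch 167 of 214 were lower and 8 higher (median -0.95, 0.519 of WT), and in the chromosome 18 stretch 161 of 215 were lower and 18 higher (-0.85, 0.555 of WT). The chromosome 20 stretch had 199 of 344 higher and 24 lower (0.51, 1.42 times WT), and the chromosome 9 stretch 66 of 134 higher and 15 lower (0.40, 1.32 times WT). These stretches were picked for this shift, so the counts describe it and are no test. The called share inside them was 77.3%, with 296 genes higher and 745 lower.

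The shift was even across libraries. The median over the genes of a stretch, relative to the WT mean, lay between -1.04 and -0.97 in the 4 double KO libraries for chromosome 16, between -0.93 and -0.86 for chromosome 11 and between -0.92 and -0.81 for chromosome 18. It lay between 0.48 and 0.49 for chromosome 20 and between 0.35 and 0.46 for chromosome 9. WT libraries stayed within -0.03 to 0.03 in all 5 stretches, and genes elsewhere had a median of 0.03 in double KO.

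The bounds of the stretches can be set beside the genes on each side of them. On chromosome 11 the 13 genes from 95 to 100 Mb had a median of -0.17 and the 10 genes from 100 to 105 Mb one of -0.83. On chromosome 16 the 69 genes from 30 to 35 Mb had a median of -1.06, and the 22 genes from 45 to 50 Mb one of 0.12. On chromosome 18 the 22 genes from 20 to 25 Mb had -0.30, and the 8 genes beyond 80 Mb had -1.27, so the shift ran past the upper bound. On chromosome 20 the 84 genes below 35 Mb had a median of 0.06 and the 260 from 35 Mb on one of 0.58 (1.49 times WT). On chromosome 9 the 23 genes below 30 Mb had 0.04, the 111 from 30 Mb on had 0.47, and the 14 from 40 to 45 Mb had 0.29. Among 273 windows of 10 Mb elsewhere with at least 15 genes, medians ran from -0.29 to 0.45. In windows of 5 Mb, the 25 genes from 0 to 5 Mb on chromosome 18, outside its stretch, had a median of 0.65, above the medians of the chromosome 20 and 9 stretches. Between the vincristine libraries of the same lines the median of these genes was 0.19.

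**Figure D3:**
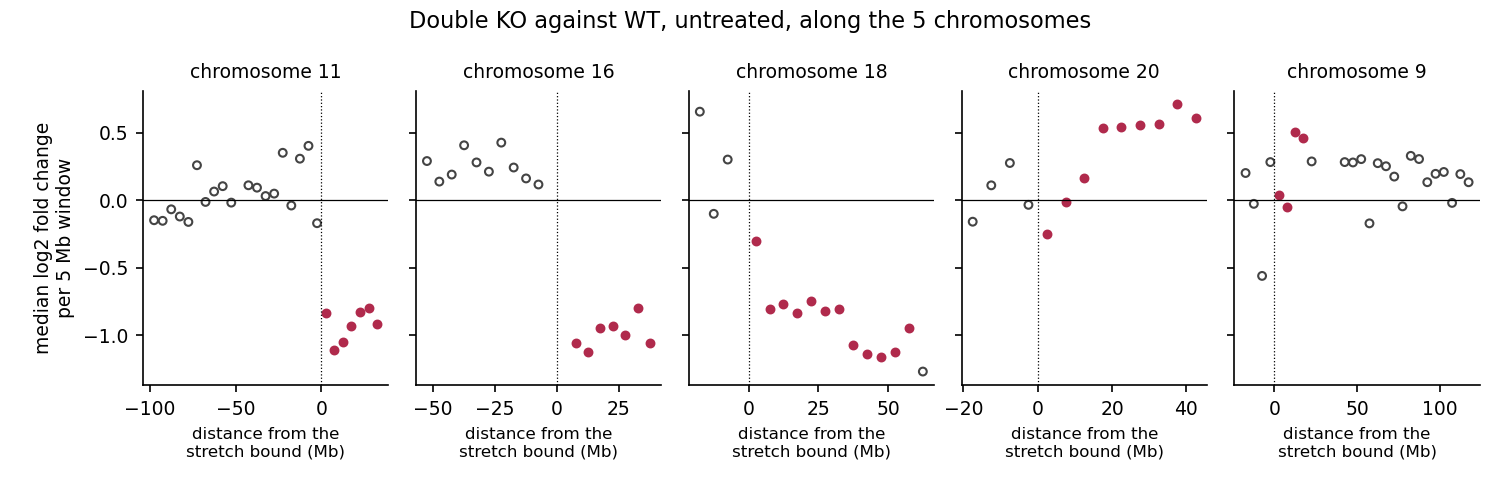
Median log2 fold change of tested genes per 5 Mb window along 5 chromosomes against the distance in Mb from a bound of the stretch, which for chromosome 16 is its upper bound measured towards the start and for the others its lower bound. Filled points lie inside the stretch and open points outside. Window medians inside the stretch run from -1.11 to -0.80 on chromosome 11 and from -1.12 to -0.80 on chromosome 16.

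The single knockout lines, which share the WT libraries, had medians from -0.11 to 0.10 (DLK KO) and from -0.08 to 0.09 (LZK KO) over the 5 stretches. The vincristine libraries of the double KO and WT lines are libraries that the choice of stretches did not use. There, 10140 genes (55.6%) differed between the lines, and the medians of the stretches were -1.01 on chromosome 11, -1.05 on 16, -0.93 on 18, 0.46 on 20 and 0.42 on 9. WT vincristine replicate 4 stood apart in these medians by library, at -0.39 on chromosome 16 where the others of its group lay between 0.01 and 0.09. Without it the same medians were -0.96, -1.13, -0.92, 0.40 and 0.45.

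**Figure D4:**
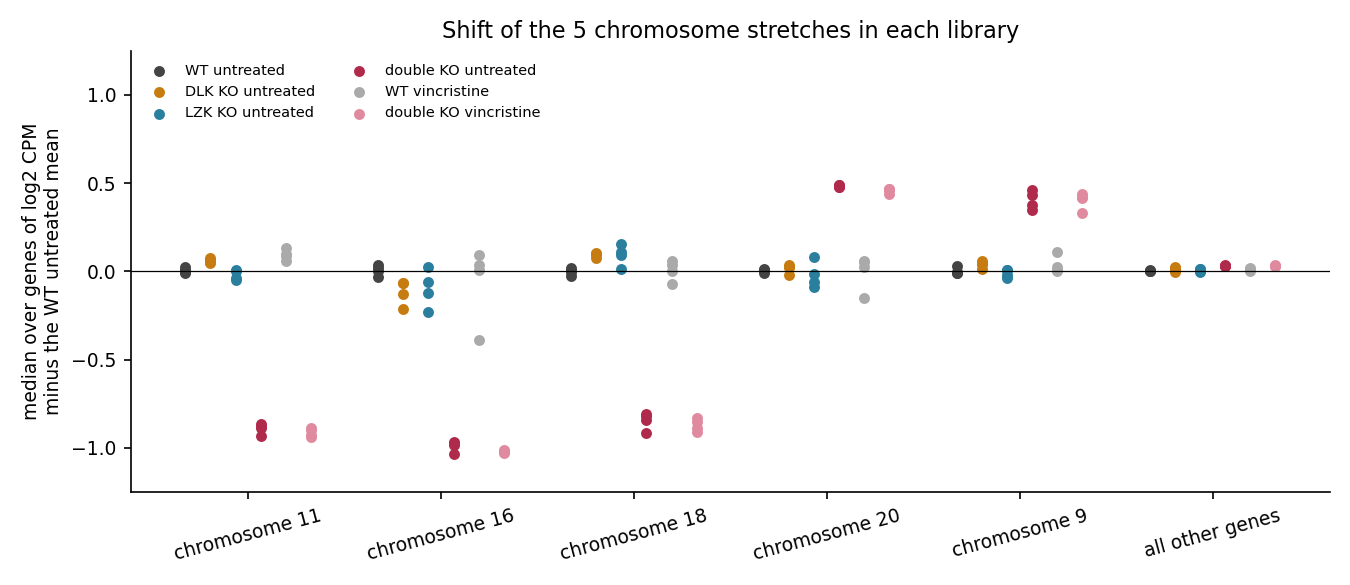
Median over the genes of each stretch, and over all other genes, of log2 CPM minus the untreated WT mean, with a point for each library of 6 groups. Double KO libraries, untreated or with vincristine, lie between -1.04 and -0.81 on chromosomes 11, 16 and 18 and between 0.33 and 0.49 on chromosomes 20 and 9.

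Individual genes in the stretches ranged widely around these medians. On chromosome 16 the zinc finger gene ZNF785 fell from 33.5, 37.7, 34.4 and 39.1 CPM to 0.416, 0.882, 0.252 and 0.372 (-6.17 ± 0.25), while the splicing factor gene RBFOX1 rose from 0.373 to 0.993 CPM to 15.6 to 19.1 (4.59 ± 0.26). On chromosome 11 PDGFD, a growth factor gene, fell from 24.9 to 33.5 CPM to 1.86 to 3.22 (-3.61 ± 0.14), and the adhesion gene DSCAML1 rose from 2.39 to 3.68 CPM to 6.34 to 7.08 (1.23 ± 0.24). On chromosome 18 the lipase gene LIPG fell from 13.0 to 17.1 CPM to 1.12 to 1.34 (-3.59 ± 0.22), and CBLN2, a synapse organiser, rose from 1.68 to 2.25 CPM to 12.1 to 16.0 (2.74 ± 0.17).

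On chromosome 20 the imprinted gene NNAT went against its stretch. It stood at 1026, 1074, 1130 and 1175 CPM in WT and at 244, 224, 222 and 236 in double KO (-2.25 ± 0.07), with 256 ± 8.92 in LZK KO and 723 ± 77.7 in DLK KO. TSHZ2, a homeobox factor, rose from 1.24 to 3.78 CPM to 84.3 to 96.9 (5.10 ± 0.15). On chromosome 9 MOB3B fell from 25.5 to 31.2 CPM to 12.2 to 15.6 (-1.07 ± 0.12), and FRMPD1 rose from 0.839 to 2.19 CPM to 23.4 to 27.4 (4.04 ± 0.19).

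Markers were used to check the cell type, where 23.6% of all genes were higher and 22.1% lower. Of 10 pan-neuronal markers 6 rose, 3 fell and 1 was not called, and their summed level was 7291 to 7521 CPM in WT and 8306 to 8574 in double KO. It was 5864 to 6411 CPM in DLK KO and 8664 to 9501 in LZK KO. DCX, a microtubule protein of young neurons, rose from 1278, 1283, 1293 and 1328 CPM to 1864, 1847, 1907 and 1875 (0.53 ± 0.06). NCAM1 fell from 1214 to 1289 CPM to 560 to 578 (-1.14 ± 0.07), but it lies in the chromosome 11 stretch. Of 10 tested markers of glutamatergic cortical neurons 3 rose and 4 fell, and the sum went from 664 to 689 CPM in WT to 529 to 544 in double KO. This sum was also lower in the single knockouts, at 527 to 575 CPM in DLK KO and 544 to 596 in LZK KO. TBR1, a cortical transcription factor, rose from 0.570 to 1.35 CPM.

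SLC17A6, the vesicular glutamate transporter of these cells, fell from 314, 297, 310 and 276 CPM to 170, 145, 171 and 168 (-0.87 ± 0.08). SLC17A7, its relative, fell from 26.0 to 31.9 CPM to 19.2 to 19.9 (-0.54 ± 0.10). NEUROD2, a neuronal transcription factor, fell from 24.6, 21.5, 24.5 and 25.0 CPM to 2.81, 2.57, 3.36 and 3.72 (-2.94 ± 0.19), and LZK KO was near the double KO level with 4.39 ± 0.760. Both glutamate transporters remained detected in every double KO library.

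Markers of GABAergic neurons were higher but low in absolute terms. Of 6 tested 5 rose and DLX2 fell, with a median of 2.43, and their sum went from 3.37 to 4.87 CPM in WT to 15.1 to 19.2 in double KO. Outside the stretches 4 of 5 rose and 1 fell. The sums were 7.42 to 9.37 CPM in DLK KO and 10.4 to 11.5 in LZK KO. GAD1, which makes GABA, rose from 0 to 0.652 CPM to 5.03 to 5.96 (3.98 ± 0.35), and GAD2 from 0.287 to 0.559 to 1.84 to 3.22 (2.64 ± 0.34). DLX1 and DLX5 had too few reads to be tested.

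Sensory, cholinergic and peripheral neuron markers were split, with 5 of 12 higher and 5 lower. PRPH, a peripheral intermediate filament, rose from 2.58, 2.70, 3.30 and 2.78 CPM to 112, 116, 109 and 112 (5.28 ± 0.13), with 6.64 ± 0.664 in DLK KO and 2.48 ± 0.647 in LZK KO. The cholinergic genes fell. SLC5A7, the choline transporter, went from 30.1, 24.0, 26.5 and 24.9 CPM to 1.77, 1.52, 2.10 and 2.14 (-3.80 ± 0.16), and CHAT, which makes acetylcholine, from 8.12 to 9.13 CPM to 1.35 to 2.10 (-2.42 ± 0.18).

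Markers of cells that are not neurons were compared in the same way. Of 6 tested markers of pluripotent cells 4 rose and 1 fell, with a summed level of 101 to 108 CPM in WT and 218 to 231 in double KO. Of the 5 outside the stretches 3 rose and 1 fell. DLK KO had a summed level of 82.6 to 86.8 CPM and LZK KO one of 177 to 186. POU5F1, NANOG, TDGF1 and ZFP42, which define the pluripotent state, had too few reads to be tested. LIN28A, an RNA-binding protein of early development, rose from 2.49, 2.05, 1.40 and 1.59 CPM to 51.8, 51.1, 53.6 and 57.2 (4.84 ± 0.17). LIN28B, its relative, rose from 69.6 to 73.5 CPM to 140 to 151 (0.99 ± 0.06).

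Of 8 markers of neural progenitors 3 rose and 2 fell. HES1, a Notch target, rose from 0 to 0.191 CPM to 10.4 to 13.4 (6.93 ± 0.37), and VIM, an intermediate filament, from 47.5 to 54.9 to 186 to 191 (1.86 ± 0.06). NES, the intermediate filament nestin, fell from 713, 746, 702 and 709 CPM to 95.3, 94.1, 89.2 and 89.9 (-2.96 ± 0.15), and SOX2 from 20.0 to 24.6 to 10.2 to 11.9 (-1.05 ± 0.14). The sum of the list, mostly NES in WT and mostly VIM in double KO, went from 782 to 827 CPM in WT to 304 to 316 in double KO. It was 233 to 303 CPM in DLK KO and 568 to 725 in LZK KO.

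Genes of dividing cells were mostly low, with 5 of 10 higher and 1 lower and sums of 33.6 to 37.7 CPM in WT and 47.8 to 60.2 in double KO. Their sums were 46.4 to 51.9 CPM in DLK KO and 101 to 108 in LZK KO. MKI67, a proliferation antigen, rose from 3.82 to 5.54 CPM to 13.6 to 17.1 (1.68 ± 0.13). Of 5 tested markers of mesenchymal or neural crest cells 3 rose (SNAI2, TFAP2A and FOXC1), with sums of 11.4 to 14.3 CPM in WT and 34.6 to 39.1 in double KO. In DLK KO the sum was 37.1 to 45.7 CPM and in LZK KO 8.90 to 11.7. COL3A1, LUM, DCN, TWIST1 and PRRX1 of that list were not testable. GFAP and AQP4 of the astrocyte list and SOX10 and MOG of the oligodendrocyte list also had too few reads. S100B of the first rose from 0.140 to 1.19 CPM to 1.84 to 2.26 (2.01 ± 0.35), and PDGFRA of the second from 0.280 to 0.913 to 1.46 to 1.76 (1.45 ± 0.36). The part of these markers in the changes of the gene groups described next was not tested.

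Axon growth and injury genes were split. Of 30 genes 25 were tested, with 7 higher and 14 lower (median -0.26), beside 23.6% and 22.1% over all genes. Of the 21 outside the stretches 6 were higher and 11 lower. STMN4, a stathmin that binds tubulin, stood at 329, 333, 335 and 315 CPM in WT and at 13.6, 12.2, 13.0 and 14.2 in double KO, 24.9-fold lower with no overlap (-4.63 ± 0.08, adjusted p = 3.21e-33). SOX11, a transcription factor of growing axons, stood at 106, 106, 103 and 96.5 CPM in WT and at 1219.8, 1258, 1222 and 1221 in double KO, 12.0-fold higher (3.58 ± 0.11, adjusted p = 2.63e-22). SOX11 was at 394 ± 35.4 CPM in DLK KO and 734 ± 76.6 in LZK KO, below double KO in both cases (1.64 with adjusted p = 1.56e-14 and 0.74 with adjusted p = 4.31e-07).

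Of the other growth genes, GAP43, a growth cone protein, fell from 1008 to 739 CPM (-0.45 ± 0.07), and STMN2, an axon maintenance stathmin, rose from 1168 to 1829 (0.65 ± 0.12). GADD45A, a stress-induced gene, fell from 23.1 to 10.8 CPM (-1.10 ± 0.10), GADD45B from 2.31 to 1.00 (-1.21 ± 0.32) and KLF6, a zinc finger factor of regenerating neurons, from 47.4 to 33.7 (-0.49 ± 0.07). ADCYAP1, the neuropeptide PACAP, rose from 29.9 to 38.9 CPM to 92.8 to 103 (1.49 ± 0.09).

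The family of BCL2 proteins, which sets the threshold for apoptosis, had 6 of 15 tested members higher and 5 lower (median 0.02). Shares over all genes were 23.6% and 22.1%. HRK, a BH3-only protein that promotes neuronal apoptosis and a known target of JNK, stood at 44.2, 44.5, 38.4 and 46.6 CPM in WT and at 3.22, 3.93, 3.19 and 3.35 in double KO (-3.65 ± 0.15, adjusted p = 2.98e-20). The double KO level of HRK lay below DLK KO (7.89 ± 1.43 CPM, difference -1.19, adjusted p = 1.46e-06) and below LZK KO (14.6 ± 2.18, difference -2.09, adjusted p = 2.46e-12). BBC3 (PUMA) fell from 5.94 to 3.76 CPM (-0.65 ± 0.20).

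Of the other BH3-only genes, some rose. BCL2L11 (BIM), another JNK target in neurons, stood at 7.55, 7.83, 6.95 and 5.96 CPM in WT and at 19.4, 18.9, 16.3 and 16.4 in double KO (1.32 ± 0.13, adjusted p = 1.09e-10). PMAIP1 (NOXA), in the chromosome 18 stretch, fell from 1.49 to 0.0442 CPM (adjusted p = 3.75e-07), and BAD was at 32.5 and 29.4. BMF rose from 1.15 to 2.42 CPM to 5.29 to 7.38 (1.82 ± 0.20). BIK had 2 counts in the WT libraries and 92 in double KO, a ratio of 46.8 with a 95% counting interval of 12.6 to 392. The survival genes were MCL1, which fell from 136 to 117 CPM (-0.21 ± 0.05), BCL2L2, which fell from 19.1 to 14.0 (-0.45 ± 0.10), and BCL2, which rose from 11.8 to 15.9 (0.43 ± 0.09) although it lies in the chromosome 18 stretch. BAX and BAK1, the pore formers, were not called.

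Stress response genes were mostly lower, where 22.1% of all genes were lower. Of 12 genes of the integrated stress response, the programme that ATF4 directs when translation is impaired, 7 fell and 1 rose (median -0.50). CHAC1, which degrades glutathione, stood at 4.21, 6.43, 5.13 and 5.27 CPM in WT and at 2.08, 2.09, 2.01 and 2.05 in double KO (-1.35 ± 0.17). ATF5 (-0.86 ± 0.13), TRIB3 (-0.75 ± 0.13), DDIT3, which encodes CHOP (-0.65 ± 0.18), and the cystine transporter SLC7A11 (-1.49 ± 0.28) also fell. VLDLR, a lipoprotein and reelin receptor, rose from 30.2 to 31.8 CPM to 73.5 to 78.0 (1.29 ± 0.07).

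Of 16 chaperones of the endoplasmic reticulum 13 fell and 1 rose (median -0.67), where 22.1% of all genes were lower. Their sum went from 2540 to 2979 CPM in WT to 1635 to 1717 in double KO. CALR, a calcium-binding chaperone, fell from 506, 477, 512 and 425 CPM to 259, 251, 251 and 261 (-0.91 ± 0.06), and HSP90B1 from 442 to 553 to 254 to 297 (-0.88 ± 0.08). XBP1, the transcription factor of the unfolded protein response, fell from 33.0 to 45.6 CPM to 17.1 to 19.5 (-1.16 ± 0.09). The sums of this list were 2400 to 2554 CPM in DLK KO and 2294 to 2460 in LZK KO. Between the vincristine libraries the median of the list was 0.35, of the other sign.

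Cholesterol genes fell as a whole list. All 22 tested genes of cholesterol synthesis and uptake were lower in double KO, with a median of -1.39, where 22.1% of all genes were lower. None overlapped WT, where the groups were apart in 47.2% of all genes tested. Their sum went from 6073 to 7078 CPM in WT to 2505 to 2639 in double KO, with 3107 to 3908 in DLK KO and 4746 to 5333 in LZK KO. Between the vincristine libraries of the same lines the median was -0.47. HMGCS1, an enzyme of the first steps of the pathway, fell from 1499.6 to 576 CPM (-1.38 ± 0.10).

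Other genes of the list fell with it. FDPS, which makes farnesyl diphosphate, stood at 249, 239, 251 and 228 CPM in WT and at 87.9, 81.7, 74.5 and 79.9 in double KO (-1.58 ± 0.07, adjusted p = 1.09e-20). INSIG1, which holds the pathway's activator in check and is itself a target of it, stood at 205, 198, 194 and 158 CPM in WT and at 44.0, 43.6, 48.4 and 42.7 in double KO (-2.08 ± 0.09). FDFT1 fell from 509 to 628 CPM to 178 to 195 (-1.66 ± 0.08), HSD17B7 from 21.1 to 4.84 (-2.11 ± 0.14) and SC5D, in the chromosome 11 stretch, from 144 to 29.3 (-2.29 ± 0.12). The activator SREBF2 fell from 477 to 244 CPM (-0.96 ± 0.11).

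Glycolysis and antioxidant genes were also mostly lower, where 22.1% of all genes were lower. Of 21 glycolysis genes 13 fell and 2 rose (median -0.44), with a sum of 4560 to 5113 CPM in WT and 3426 to 3620 in double KO. The single knockouts were also below WT, with 3902 to 4083 CPM in DLK KO and 3604 to 3760 in LZK KO. PFKP, a phosphofructokinase, fell from 52.1 to 56.5 CPM to 17.1 to 19.5 (-1.56 ± 0.10), ALDOC, an aldolase, from 10.4 to 11.1 to 2.29 to 3.61 (-1.77 ± 0.15), and ENO2, the neuronal enolase, from 458 to 487 to 281 to 303 (-0.69 ± 0.05). Of 15 tested NRF2 and antioxidant genes 8 fell and 2 rose (median -0.33). The pentose phosphate enzymes PGD (-0.51 ± 0.05) and TKT (-0.63 ± 0.08) and the malic enzyme ME1 (-0.88 ± 0.10) were among them.

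The cytoskeleton list of tubulins, stathmins and microtubule-associated proteins had 8 of 26 members higher and 11 lower (median -0.09). TUBA4A, an alpha tubulin of mature neurons, fell from 13.7 to 15.0 CPM to 2.57 to 3.74 (-2.20 ± 0.18), and MAP4 from 281 to 312 to 190 to 206 (-0.58 ± 0.07). MAP1B, MAPT and TUBA1A were not called. Of 7 intermediate filament genes 5 rose and 1 fell. NEFM, a neurofilament, rose from 6085, 5979.8, 6411 and 6563 CPM to 8374, 8788, 8525 and 8449.8 (0.45 ± 0.09), while NEFL was at 3437 and 3381.

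Genes of the synaptic vesicle cycle fell more often than they rose, with 19 of 30 lower and 5 higher (median -0.34). Outside the stretches 17 of 27 were lower and 4 higher. Shares over all genes were 22.1% lower and 23.6% higher. SV2B, a vesicle glycoprotein, stood at 188, 178, 183 and 189 CPM in WT and at 20.5, 28.4, 25.5 and 25.0 in double KO (-2.89 ± 0.07, adjusted p = 6.42e-28). Its relative SV2C went the other way, from 1.62, 1.68, 2.46 and 2.58 CPM to 57.1, 58.0, 52.9 and 52.6 (4.70 ± 0.16, adjusted p = 7.78e-24). SYP, the vesicle protein synaptophysin, fell from 340 to 360 CPM to 173 to 188 (-0.96 ± 0.07), SYT11 from 222 to 242 to 59.4 to 63.5 (-1.91 ± 0.05) and the release regulator CPLX2 from 547 to 209 (-1.39 ± 0.12). SNAP25, of the fusion machinery, was at 101 and 104 CPM.

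Transmitter receptors rose more often than they fell. Of 38 glutamate, GABA and nicotinic receptor genes 22 were higher and 12 lower (median 0.53), where 23.6% of all genes were higher and 22.1% lower. Of the 34 outside the stretches 20 were higher and 10 lower. GRM8, a metabotropic glutamate receptor, rose from 6.60, 5.96, 5.76 and 7.05 CPM to 61.3, 67.3, 69.4 and 60.9 (3.36 ± 0.09). GRIA1, an AMPA receptor subunit, rose from 10.6 to 46.3 CPM (2.14 ± 0.11) and GRIA4 fell from 353 to 399 to 100.4 to 109 (-1.83 ± 0.07), the latter in the chromosome 11 stretch. The nicotinic subunits CHRNA5 (-2.92 ± 0.11), CHRNA3 (-1.76 ± 0.14) and CHRNB4 (-1.58 ± 0.12), whose genes are neighbours on chromosome 15, all fell.

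Among 38 voltage-gated channel genes 15 were higher and 10 lower (median 0.14). The lower share was near that of all genes (22.1%), where 23.6% were higher. Of the 33 outside the stretches 13 were higher and 8 lower. KCNC2, a fast potassium channel, fell from 58.1, 55.4, 59.0 and 56.0 CPM to 6.24, 6.98, 7.21 and 6.61 (-3.07 ± 0.10), and DLK KO (6.70 ± 0.617) and LZK KO (8.54 ± 1.00) were as low. KCNQ3, of the M-current, rose from 11.3 to 12.8 CPM to 57.3 to 68.3 (2.34 ± 0.10), below the 130 ± 3.32 of LZK KO (-1.08, adjusted p = 2.32e-13). KCND2 fell from 70.9 to 77.4 CPM to 29.0 to 32.3 (-1.29 ± 0.07).

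Axon guidance genes rose in most cases. Of 44 ligands and receptors 29 were higher and 4 lower (median 0.66), where 23.6% of all genes were higher. PLXNA4, a semaphorin receptor, stood at 32.4, 33.2, 32.2 and 39.3 CPM in WT and at 438, 485, 444 and 450.3 in double KO (3.73 ± 0.13, adjusted p = 1.64e-21). The ligands SEMA3D (from 8.48 to 11.9 CPM to 72.4 to 87.2, 3.00 ± 0.11) and SEMA3C (from 8.48 to 10.3 CPM to 50.6 to 61.9, 2.60 ± 0.11) rose, and NTN1, the attractant netrin, rose from 1.33 to 22.1 (4.06 ± 0.19). The ephrin receptors EPHA5, EPHA6, EPHA7, EPHB1 and EPHB3 rose by 1.15 to 1.67, and EPHA4 fell (-0.85 ± 0.06). SLIT2, a repellent ligand, fell from 409 to 480 CPM to 150.3 to 152 (-1.54 ± 0.07).

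Clustered protocadherins, adhesion proteins whose isoforms give neurons an individual identity, were higher as a group. Of 51 tested genes 38 rose and 7 fell (median 1.17), and their sum went from 769 to 862 CPM in WT to 1520 to 1624 in double KO. The same sums were 368 to 429 CPM in DLK KO and 760 to 860 in LZK KO. PCDHGA2 stood at 0.287, 0.746, 0.702 and 0.497 CPM in WT and at 32.5, 37.1, 34.1 and 38.6 in double KO (5.93 ± 0.20, adjusted p = 6.04e-24). PCDHGB1 rose from 1.49 to 3.48 CPM to 36.7 to 44.8 (4.07 ± 0.16). Genes of the alpha and of the gamma cluster share their last exons, so reads between them are uncertain.

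Other adhesion genes showed no common direction, with 10 of 24 tested cadherins and non-clustered protocadherins higher and 8 lower (median 0.02). Outside the stretches 8 of 19 were higher and 5 lower. PCDH11X fell from 366 to 381 CPM to 51.4 to 63.7 (-2.70 ± 0.07) and PCDH19 rose from 7.83 to 10.3 to 64.9 to 67.6 (2.91 ± 0.10). CDH13 fell from 96.6 to 111 CPM to 20.6 to 24.8 (-2.19 ± 0.10). Of 30 tested integrins, laminins and collagens 10 rose and 9 fell (median 0.01). ITGB8, a subunit that activates TGF-beta, fell from 67.1 to 77.8 CPM to 7.90 to 9.14 (-3.06 ± 0.10), and the basement membrane collagens COL4A1 (2.99 ± 0.15) and COL4A2 (2.08 ± 0.16) rose.

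Neuropeptides and granins were split, with 6 of 18 tested higher and 8 lower (median -0.18). TAC1, the precursor of substance P, rose from 8.98, 8.29, 8.92 and 7.35 CPM to 74.9, 64.7, 70.3 and 70.2 (3.05 ± 0.16), near LZK KO (60.2 ± 8.44). The granins SCG2 (from 157 to 184 CPM to 42.8 to 46.3, -1.94 ± 0.10) and CHGA (from 255 to 77.3, -1.72 ± 0.13) fell. Activity-induced early genes had 5 of 15 tested higher and 2 lower (median 0.17). BDNF, a neurotrophin, rose from 1.43, 2.80, 1.40 and 1.09 CPM to 16.5, 13.8, 12.6 and 13.5 (3.06 ± 0.20), and EGR1 fell from 17.2 to 20.1 to 3.69 to 6.55 (-1.98 ± 0.20).

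**Figure D5:**
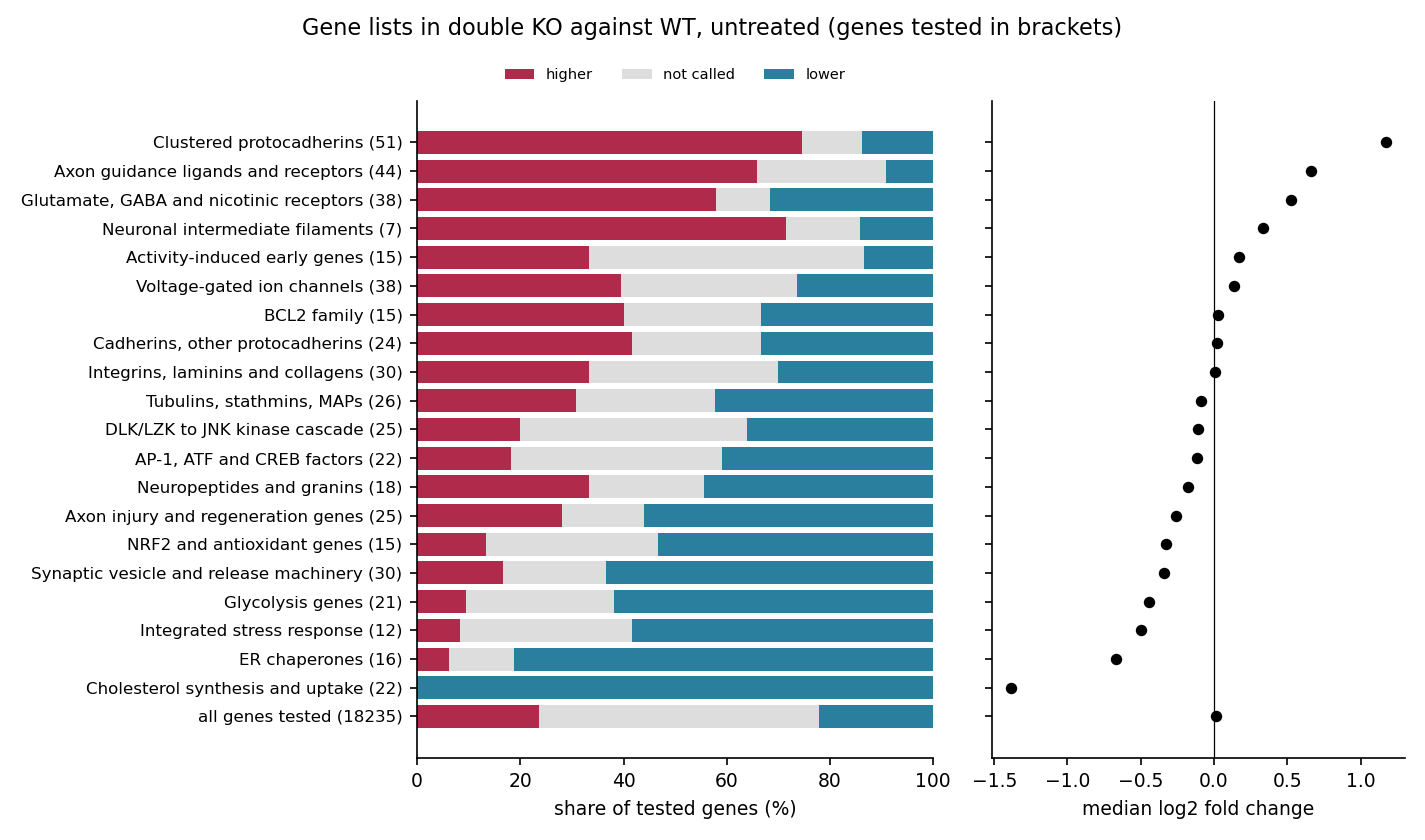
For 20 gene lists and all genes tested, the share of tested members called higher, not called and called lower in untreated double KO against WT (left), and the median log2 fold change (right). Cholesterol genes are lower in 22 of 22 cases, and clustered protocadherins have the highest median at 1.17.

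The vincristine libraries give a further reading of the same 2 lines. Of the 7293 genes called outside the stretches, 6396 (87.7%) had the same sign there and 5061 were also called. Without WT vincristine replicate 4 the share was 87.0%. Inside the stretches 1018 of 1041 (97.8%) had the same sign. The 26 targeted and extreme genes of this text were tested for a difference in the line effect between treatments, and DUSP16, MAP3K13 and BNC2 passed. For other genes the result of this test is not reported here, and their values are only set side by side. Among those, JUN was at -1.82 untreated and -3.46 with vincristine, ATF3 at -3.12 and -6.72, and HRK at -3.65 and -6.36. BCL2L11 changed sign (1.32 and -1.07), while SOX11 (3.58 and 3.55) and SV2B (-2.89 and -2.77) were alike. The WT response to the drug is part of the vincristine values.

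Neurons of the second experiment with a JUN or ATF2 gRNA have their own controls and were set beside these calls. JUN gRNA changed 2332 of 20759 genes (11.2%) and ATF2 gRNA 8281 (39.9%). Over the 15674 genes tested in both experiments, JUN gRNA raised 7.02% and lowered 6.44%. Among the 3160 of them that fell in double KO, JUN gRNA lowered 14.3% and raised 7.82%, and among the 3775 that rose it lowered 5.06% and raised 11.1%. For ATF2 gRNA the lowered and raised shares were 38.1% and 22.4% among genes that fell, 21.8% and 27.6% among those that rose, and 24.1% and 21.9% over all. The correlation of log2 fold changes across genes, which are not independent replicates, was 0.14 for JUN gRNA and 0.16 for ATF2 gRNA. For ATF2 gRNA it was 0.28 among genes that rose in double KO and 0.02 among those that fell. For JUN gRNA it was 0.15 in both sets.

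Single genes differed in which gRNA moved them. STMN4 was at 389.6 ± 19.5 CPM in Control gRNA, 414 ± 17.0 with JUN gRNA and 14.2 ± 1.20 with ATF2 gRNA (SD, n = 5), where it fell by 4.77 on the log2 scale (adjusted p = 3.60e-25). DUSP16 went from 61.6 ± 2.94 CPM to 37.3 ± 1.64 with JUN gRNA (-0.72, adjusted p = 2.54e-10) and to 9.03 ± 0.728 with ATF2 gRNA (-2.77, adjusted p = 1.18e-27). CREB5 went from 28.4 ± 2.90 CPM to 5.44 ± 0.577 with ATF2 gRNA (-2.38, adjusted p = 5.16e-21), and JUN itself from 88.5 ± 6.97 to 21.0 ± 2.00 (-2.08, adjusted p = 4.18e-16).

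HRK fell with both, to 35.3 ± 1.92 CPM with JUN gRNA and 42.3 ± 2.10 with ATF2 gRNA from 62.8 ± 4.26 in Control gRNA. SST rose from 1.18 ± 0.220 CPM to 165 ± 14.1 with ATF2 gRNA, and BDNF from 1.66 ± 0.175 to 16.0 ± 1.88. EGR1 went against its direction in double KO, rising from 13.9 ± 1.94 CPM to 39.5 ± 5.22 with JUN gRNA and to 536 ± 16.4 with ATF2 gRNA. SOX11, higher in double KO, fell with both gRNAs, by 0.69 and 0.42 on the log2 scale.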

How the data were processed

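RNA was sequenced as stranded poly(A) libraries of read pairs. The authors' deposited gene counts are whole numbers per gene, made, per the submitters' processing notes, with cutadapt 3.4, STAR and featureCounts of Subread 2.0.1 on GRCh38. The strand setting and the treatment of duplicates are not given in the sources used here. Libraries were grouped by their labels. The 32 libraries of experiment 1 (8 groups of 4) were fitted together with edgeR 4.0.16 (R 4.3.3) after filterByExpr and TMM scaling, and tested by robust quasi-likelihood with Benjamini-Hochberg adjustment at 0.05. Standard errors are the log2 fold change over the root of F. Experiment 2 was fitted on its own. The code was tested on simulated counts.

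The 5 stretches and all gene lists were chosen with earlier results of these data known. Genes named are the targeted ones, the 12 highest and 12 lowest called protein-coding genes outside the stretches with a mean log2 CPM of at least 1 and groups apart, the highest and lowest gene of each stretch, up to 4 called members per list with the smallest p, and the 3 furthest departures each way. Further list members are given from the fixed lists to describe roles and were picked after their values were seen. Some genes are not reported here. Counting intervals (95%) and the floor of 3 counts cover counting error only. Alternatives were DESeq2 1.42.0, limma 3.58.1 with voom, other scaling, filters, groups in the fit, GC offsets, a replicate block and each replicate left out. Replicate numbers did not pair the libraries. Promoter windows came from RefSeq (GRCh38.p14). The labels' protocol gives 10 to 14 days of differentiation, and the design text day 14.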

Additional observations from a re-analysis of the deposited data

Results flagged for a closer look

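Of 82 sets of 4 libraries examined, 3 had a library far from the others; chance gives about 1 in 20. MAP3K12 was at 94.3 CPM in WT untreated replicate 2 and at 89.7 to 90.2 in the other WT libraries. ZNF585A was at 0.755 CPM in double KO untreated replicate 3 and at 0.208 to 0.279 in the others of its group. CBLN2 was at 1.68 CPM in WT untreated replicate 2 and at 2.19 to 2.25 in the others.

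The difference between double KO and WT was larger with vincristine than without for 3 of 26 genes tested (edgeR, Benjamini-Hochberg). Only the targeted and extreme genes were examined here, so the count does not cover the genes of the lists. MAP3K13 differed by -1.74 untreated and -2.20 with vincristine on the log2 scale, a change of -0.46. DUSP16 differed by -5.03 and -6.92, a change of -1.89. BNC2 differed by 5.63 and 6.64, a change of 1.01.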

How the results depend on the processing

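Counts of genes higher or lower, inside and outside the stretches and for the departure, stayed within 1.5 times under every alternative run (outside: 3503 to 4886 higher, 2870 to 4106 lower; departure: 6115 to 8014). The split outside the stretches was 3644 higher to 3654 lower with TMM factors from genes outside them, and 3904 to 3895 with no filter. Of 2601 gene results under alternatives, 2599 kept their direction and call. The other 2 kept the direction and missed the threshold, 1 without WT untreated replicate 4 and 1 without double KO untreated replicate 2. Of 1080 list counts 34 moved by over 1.5 times.

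Medians of the stretches moved by more than the spread between libraries in these cases. DESeq2 and limma voom gave 0.50 for chromosome 20. TMM factors from genes outside the stretches gave -0.98 for chromosome 11, -1.08 for 16 and 0.47 for 20. Without a filter the values were -1.14 for 11, -1.18 for 16, -1.09 for 18, and 0 for 20 and 9. With only the groups compared they were -0.98 for 11 and 0.49 for 20. GC offsets gave -0.98 for 16, -0.90 for 18 and 0.52 for 20, and a same-sign share with the vincristine libraries of 86.8%. The replicate block with GC offsets gave -0.99, -0.90 and 0.52, and 86.7%. Leaving out 1 library gave -0.99 to -0.91 for 11, 0.48 to 0.52 for 20 and 86.7% to 88.3%. The replicate block alone gave 3915 higher and 3188 lower outside the stretches, 289 and 741 inside, and 6438 departures. The causes were not tested. Correlations of same-numbered libraries ran from -0.28 to 0.32. Depths of 9.64 to 14.6 M counts limit genes near 1 CPM.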
